A study of Mus musculus with 16 samples.

Results

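MHC class II presentation was followed through 10 genes in hamstring muscle of mice with experimental myositis. The genes were H2-Aa, H2-Ab1, H2-Eb1, H2-DMa, H2-DMb1, H2-DMb2, H2-Oa, H2-Ob, Cd74 and Ciita. They were taken by symbol from a table of normalised counts that lists 26382 genes, and each symbol matched 1 row. The table held 16 bulk poly(A) RNA-seq libraries from 9 mice.

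The animals were female C57BL/6 mice of 8 to 10 weeks, and muscle was collected 14 days after injection. Recombinant HRS, the histidyl-tRNA synthetase that is the Jo-1 autoantigen, was the immunogen. The 5 HRS legs were the left hamstrings of mice m862 to m866, given HRS at 3 to 5 mg/mL. The 5 contralateral legs were the right hamstrings of the same mice, labelled as PBS controls. The 4 PBS-only legs were both hamstrings of m867 and m868, so this group had 2 mice. The 2 HRS-MBP libraries came from m860 and m861, whose titles name an MBP fusion protein at 2 to 3 mg/mL and no leg, whereas their treatment label names HRS at 3 to 5 mg/mL. No allele other than the C57BL/6 background was given for any group. The treatment protocol describes 100 µL of HRS split over both hamstrings, 50 µL per side, which the leg labels do not follow. The groups are therefore called by their leg labels here. The implied depth was lowest in the right PBS-only leg of m868, at 8.6e+06 reads, and was 3.73e+07 to 7.39e+07 reads in the HRS legs.

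MHC class II molecules display peptides from endocytosed proteins to CD4+ T cells, and in most tissues they are made mainly by dendritic cells, B cells and macrophages. Interferon-gamma can also induce them in other cells through CIITA, the coactivator that switches the class II genes on. CIITA does not bind DNA itself but joins RFX, CREB and NF-Y proteins on the X and Y boxes of class II promoters. Resting muscle fibres make little class II, and its appearance on fibres is a known feature of myositis.

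All 10 genes were higher in the HRS legs than in the contralateral PBS legs, and no gene's values overlapped between those groups. The mean normalised counts differed 5.34-fold for H2-DMb2 to 19.4-fold for H2-Oa, and without the HRS leg of m864, by 3.20-fold for H2-DMb2 to 11.6-fold for Ciita, with H2-Oa at 11.4-fold. The same 10 genes were higher in HRS legs and in HRS-MBP muscle than in PBS-only legs, and none passed the test between contralateral and PBS-only legs. In bulk tissue, fewer or more cells of a type and less or more RNA per cell cannot be told apart. A gene was called when limma's adjusted p was under 0.05 and the log2 fold change, on the log2(normalised count + 0.5) scale, exceeded 1. By that rule 10 of 10 were called higher in HRS against contralateral legs, where 16.9% of the 16414 genes tested were called higher. H2-Oa was below the mean of 0.5 needed for testing in both PBS groups. The share of all genes that were higher without overlap was 18.3%. The median log2 fold change of the 10 genes was 3.18, and that of all genes tested was 0.08.

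**Figure D1:**
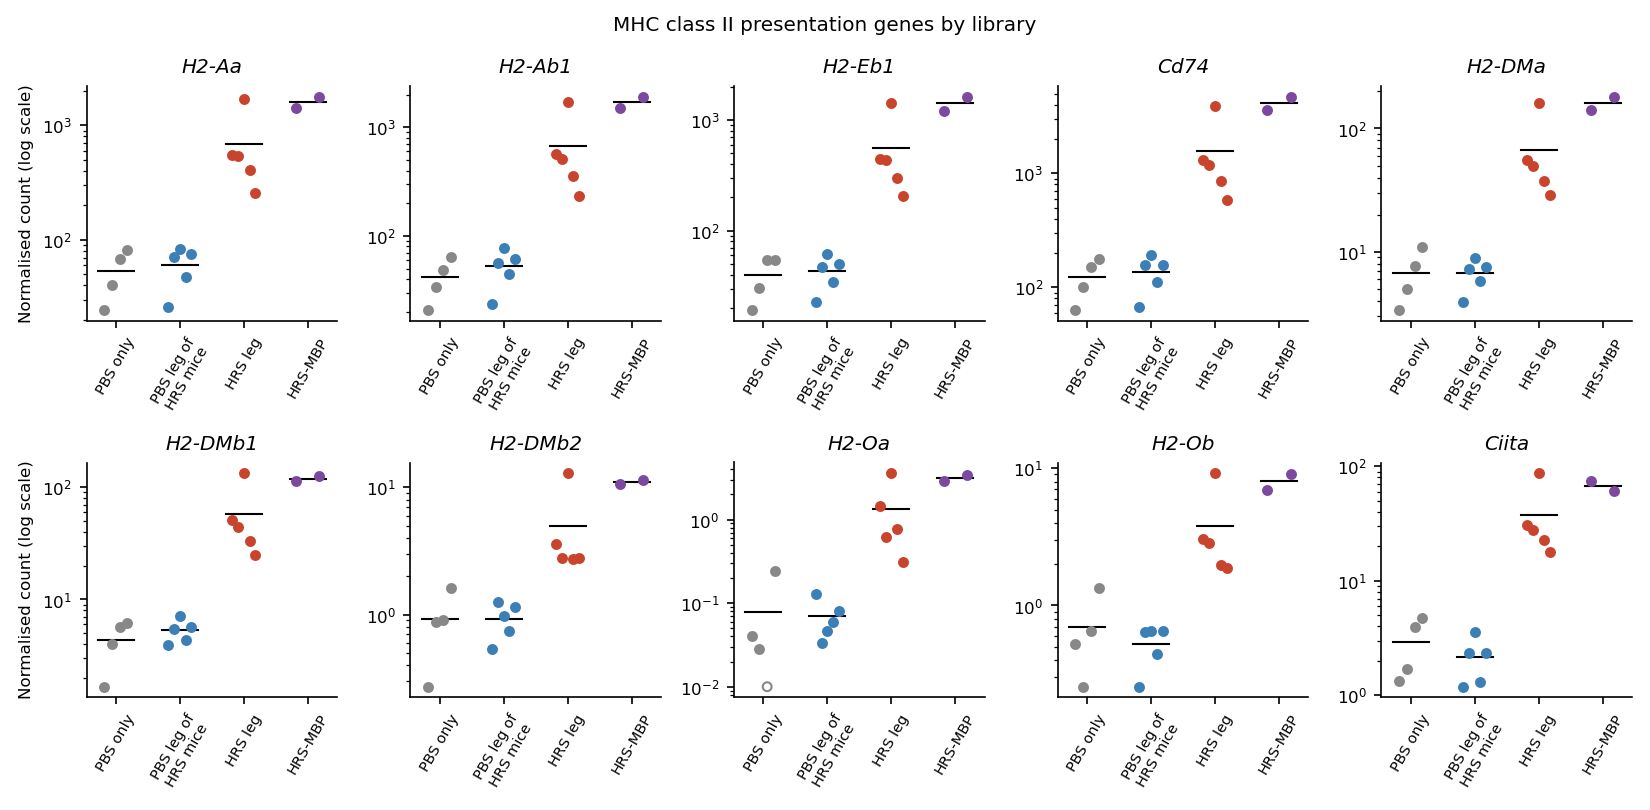
Normalised counts (log axis, scale differs between panels) of the 10 genes, 1 point per library, with a bar at the group mean. The open H2-Oa point marks a PBS-only leg listed at 0, drawn at the bottom of the axis. All HRS and HRS-MBP points lie above all PBS points, and 1 HRS leg (m864) lies near the HRS-MBP points.

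Of the 10 genes, 8 lie in the class II region of chromosome 17 and Ciita lies at chr16:10480059-10528418 (GRCm38). Promoter windows of 300 bases around the start were present in the RefSeq table (GRCm38.p6) for 7 of the 10 genes. Genes that moved together are shown here by the stretch upstream of 4 of their starts, since this is where the X and Y boxes of class II genes are known to lie. The capitals mark GCAAC, the start of an X box core, GATGATG, and ATTGG, the core of the Y box, all read 5′ to 3′ on the gene's strand. The stretches are chr17:34287847-34287931 (minus strand) for H2-Aa, chr17:34305748-34305832 (plus) for H2-Eb1, chr17:34092276-34092340 (plus) for H2-Oa and chr17:34238788-34238872 (plus) for H2-Ob.
H2-Aa: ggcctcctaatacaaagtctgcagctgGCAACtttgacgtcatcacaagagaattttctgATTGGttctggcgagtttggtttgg
H2-Eb1: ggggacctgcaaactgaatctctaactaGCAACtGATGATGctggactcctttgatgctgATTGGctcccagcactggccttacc
H2-Oa: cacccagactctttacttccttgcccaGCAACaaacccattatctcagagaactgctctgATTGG
H2-Ob: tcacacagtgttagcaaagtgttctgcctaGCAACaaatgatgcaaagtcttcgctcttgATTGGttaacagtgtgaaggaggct

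Distances are counted from the RefSeq starts of these windows, which for H2-Oa, H2-Ob, H2-DMa, H2-DMb1 and H2-DMb2 lie downstream of the start of the gene span printed with their values (GENCODE M21). ATTGG began 48 bases before the RefSeq start of H2-Aa, 59 before H2-Eb1, 43 before H2-Oa and 57 before H2-Ob. In these 4 genes GCAAC began 30 to 33 bases before ATTGG. The order GCAAC then ATTGG within 50 bases on the gene's strand was met in 0.889% of the 32851 windows of all genes, a rule chosen after the windows were read. H2-DMb1 and H2-DMb2 held ATTGG 61 and 90 bases before their RefSeq starts, inside the printed gene spans, each with GATGATG 27 bases before it and without GCAAC. Their stretches of 85 bases around ATTGG were identical at 71 positions. H2-DMa had windows at 2 alternative starts, and ATTGG was found in 1 of them, 198 bases before that start.

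Searched on both strands, ATTGG was present in windows of 7 of 7 genes, and in 37.4% of all windows. The longer X box core GCAACNG was found in H2-Eb1 alone, and in 12.7% of all windows. GCAAC and GATGATG, both chosen after the windows were read, were in 35.2% and 3.48% of all windows. These letters say nothing of which proteins were bound in this muscle.

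The classical class II chains form the peptide-binding molecules at the cell surface. H2-Ab1 encodes the beta chain of the A molecule (chr17:34257689-34269419). Its normalised counts in the HRS legs of m862 to m866 were 566, 507, 1729, 360 and 234, and in the contralateral legs of the same mice 23.7, 56.0, 76.6, 44.5 and 60.7. The PBS-only legs read 33.8 and 20.7 in m867 (right and left) and 64.4 and 49.0 in m868, and the HRS-MBP libraries 1498 and 1918. The lowest HRS leg, that of m866, stood above the highest PBS leg of either kind. The HRS leg of m864 stood between the 2 HRS-MBP libraries and far above the 4 other HRS legs. The log2 fold change between HRS and contralateral legs was 3.43 ± 0.45 (SE, adjusted p = 3.35e-05, limma).

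H2-Aa, the alpha chain that pairs with H2-Ab1 (chr17:34282744-34287823), had 554, 540, 1699, 403 and 257 normalised counts in the HRS legs and 25.8, 71.2, 83.6, 47.3 and 74.6 in the contralateral legs. Its PBS-only values were 40.4, 24.3, 81.0 and 68.1, and its HRS-MBP values 1410 and 1780. The order of the legs was that of H2-Ab1, with m864 highest and m866 lowest among the HRS legs and m862 lowest among the contralateral legs. The log2 fold change was 3.30 ± 0.45 (adjusted p = 4.73e-05).

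H2-Eb1, the beta chain of the E molecule (chr17:34305867-34316674), had 449, 440, 1424, 303 and 208 normalised counts in HRS legs and 22.6, 46.9, 61.3, 34.3 and 50.5 in contralateral legs, with a log2 fold change of 3.44 ± 0.44 (adjusted p = 2.42e-05). The HRS-MBP libraries read 1221 and 1634 and the PBS-only legs 19.1 to 54.7. C57BL/6 mice carry a defective alpha chain gene for this molecule. That gene, H2-Ea, ranged from 0 to 0.185 normalised counts over the 16 libraries and was at 0 in all PBS-only and HRS-MBP libraries. H2-Eb2, a lowly expressed neighbour of H2-Eb1, rose in HRS legs, from a mean of 0.0549 to 1.52 normalised counts (log2 fold change 1.70 ± 0.29, adjusted p = 0.000289). It too was tested only because the HRS and HRS-MBP groups lifted its mean over 0.5.

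Cd74, on chromosome 18, encodes the invariant chain, which fills the groove of new class II molecules and guides them to endosomes. The HRS legs held 1313, 1195, 3931, 862.7 and 581 normalised counts, and the contralateral legs 66.5, 156, 191, 112 and 158. The PBS-only legs held 100.0, 63.0, 179 and 149, and the HRS-MBP libraries 3616 and 4712. The groups separated as for the classical chains, with a log2 fold change of 3.28 ± 0.43 (adjusted p = 3.45e-05). Per kilobase of annotated exon, Cd74 had the highest level of the 10 genes in every group, and mean HRS leg levels ran from 939 for Cd74 through 290 for H2-Eb1, 265 for H2-Ab1 and 182 for H2-Aa to 34.1 for H2-DMb1 and 19.4 for H2-DMa. They were 3.92 for Ciita, 2.84 for H2-DMb2, 0.959 for H2-Oa and 0.703 for H2-Ob. The HRS legs differed among themselves so widely that the neighbouring levels of the 3 classical chains lay within their spread (SD 152 to 252, n = 5).

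H2-DM, a class II-like molecule that stays in endosomes, removes the invariant chain fragment and edits the bound peptides. Its alpha chain gene H2-DMa (chr17:34119541-34139101) had 55.4, 49.9, 162, 37.7 and 28.9 normalised counts in HRS legs and 3.93, 7.26, 8.91, 5.82 and 7.47 in contralateral legs (log2 fold change 2.99 ± 0.39, adjusted p = 2.95e-05). H2-DMb1, 1 of its 2 beta chain genes (chr17:34153072-34160230), had 51.1, 44.1, 133, 33.4 and 24.7 against 3.92, 5.49, 7.11, 4.32 and 5.64 (log2 fold change 3.09 ± 0.38, adjusted p = 1.77e-05). H2-DMb2, the second beta chain gene (chr17:34143307-34151555), read 3.57, 2.80, 12.9, 2.75 and 2.79 against 0.533, 1.26, 0.976, 0.739 and 1.14 (log2 fold change 1.69 ± 0.36, adjusted p = 0.00133). All 3 were separated between the groups, and relative to the range of the 5 HRS legs the gap between m864 and the next leg was widest for H2-DMb2. The beta chain genes are near copies of each other. The values of H2-DMa, H2-DMb1 and H2-DMb2 were whole multiples of 1 read in only 2, 1 and 1 of 16 libraries. How reads shared between near copies were counted is not given in the sources used here, and the level of each copy is uncertain.

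H2-DO, the partner of H2-DM that inhibits it, is best known from B cells, thymic epithelium and some dendritic cells. H2-Ob, its beta chain gene (chr17:34238903-34254414), had 3.03, 2.83, 9.20, 1.98 and 1.87 normalised counts in HRS legs against 0.256, 0.643, 0.647, 0.441 and 0.646 in contralateral legs, and 6.99 and 9.07 in HRS-MBP muscle. The PBS-only legs read 0.256, 0.526, 1.33 and 0.652. The lowest HRS leg was above the highest PBS leg, with a log2 fold change of 1.86 ± 0.33 (adjusted p = 0.000425).

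H2-Oa, the alpha chain gene of H2-DO (chr17:34092340-34095234), was close to the limit of detection in PBS muscle. Its values corresponded to 4, 2, 1, 2 and 3 reads in contralateral legs and to 1, 1, 2 and 0 reads in PBS-only legs, against 99, 58, 201, 43 and 10 reads in HRS legs. Normalised counts were 0.312 to 3.59 in HRS legs, 0.0330 to 0.128 in contralateral legs, 0 to 0.243 in PBS-only legs and 2.87 and 3.40 in HRS-MBP muscle. Pooled per unit of depth, reads were 28.5-fold higher in HRS than in contralateral legs (95% interval 16.2 to 55.7, counting error only). Of the 411 HRS reads 201 came from m864, and without that leg the ratio was 17.4 (9.72 to 34.1). The fitted log2 fold change was 1.46 ± 0.32 (adjusted p = 0.00171), which the pseudocount makes smaller than the ratio of reads. The gene reached the filter only through the HRS and HRS-MBP groups, where it is high, so its call is no independent support. With no filter it was called at the same log2 fold change of 1.46 (adjusted p = 0.00217), where 10.8% of 26382 genes were called higher. At a pseudocount of 1 it was 0.98, and the gene was no longer called. H2-Oa overlaps an antisense gene, as H2-Eb1 does, and H2-DMa and Ciita overlap the minus-strand genes Brd2 and Dexi. The library kit kept strand, but how strand was used in counting is not given in the sources used here.

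Ciita, the master regulator, had 30.7, 27.9, 87.2, 22.9 and 18.01 normalised counts in HRS legs and 1.19, 2.34, 3.603, 1.29 and 2.34 in contralateral legs. The PBS-only legs read 1.71 and 1.33 in m867 and 4.73 and 3.98 in m868, and the HRS-MBP libraries 74.4 and 61.1. The HRS leg of m864 was above both HRS-MBP libraries. The log2 fold change between HRS and contralateral legs was 3.67 ± 0.39 (adjusted p = 5.92e-06), the largest fitted value of the 10 genes in that comparison. Against PBS-only legs it was 3.36 ± 0.42, below the 3.76 ± 0.48 of H2-Ab1.

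The 2 legs of 1 mouse gave 5 pairs. In each of the 5 mice every one of the 10 genes read higher on the left, HRS side than on the right. Exact 2-sided sign flips gave p = 0.0625 for each gene, which is the lowest p possible with 5 pairs. For H2-Ab1 the fold between legs ranged from 3.86 in m866 to 23.9 in m862, with a median of 9.05. For Cd74 it ranged from 3.68 to 20.6 and for Ciita from 7.69 to 25.9. H2-DMb2 had the lowest median fold, 3.71. With mouse as a fixed replicate block in limma, 10 of 10 genes were again called higher (16.5% of all genes), with adjusted p from 0.000672 to 0.022.

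**Figure D2:**
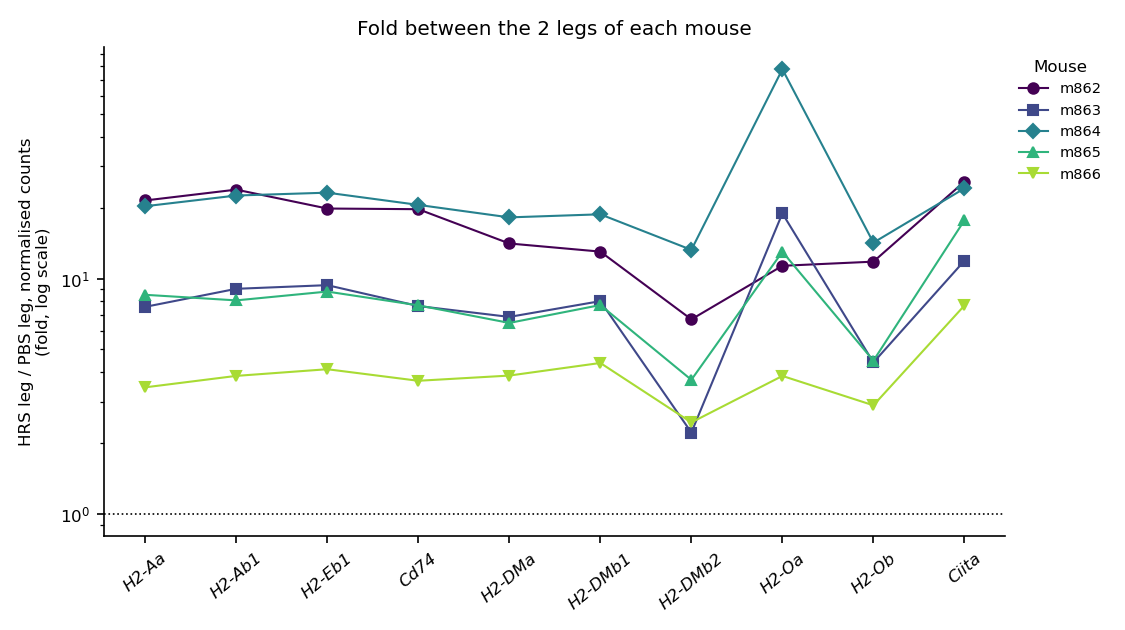
Fold of normalised counts (log axis) between the HRS leg and the PBS leg of each of 5 mice for the 10 genes, with a dotted line at no difference. Mice m862 and m864 have the highest folds and m866 has the lowest for most genes, and the H2-Oa points rest on 1 to 4 reads in the PBS leg.

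HRS legs exceeded PBS-only legs in 10 of 10 genes, against 18.9% of all genes called higher. No gene's values overlapped between these groups, as for 26.6% of all genes. Log2 fold changes ran from 1.45 ± 0.34 for H2-Oa (adjusted p = 0.00249) to 3.76 ± 0.48 for H2-Ab1 (adjusted p = 2.35e-05), with a median of 3.39. This comparison shares the HRS legs with the one above. The PBS-only libraries came from 2 mice, and with the legs of each mouse averaged 10 of 10 genes were still called (17.7% of all genes higher). The 2 legs of m868 read higher than those of m867 for 9 of the 10 genes, the exception being H2-Oa.

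Between contralateral and PBS-only legs, limma called 0 of 10 genes, and 0 had an unadjusted p under 0.05 (lowest 0.402, for H2-DMb1). Over all genes, 0% were called higher and 0.00609% lower. Values overlapped for all 10 genes, while 2.3% of all genes were higher and 0.274% lower without overlap. Log2 fold changes ran from -0.31 ± 0.42 for Ciita to 0.34 ± 0.40 for H2-DMb1. H2-Ab1 differed by 0.33 ± 0.48 and Cd74 by 0.17 ± 0.46. The mean H2-Ab1 level was 52.3 ± 19.7 (SD, n = 5) in contralateral legs and 42.0 ± 18.9 (SD, n = 4 legs of 2 mice) in PBS-only legs.

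HRS-MBP muscle exceeded PBS-only legs in 10 of 10 genes (20.7% of all genes were called higher) and did not overlap with them in any of the 10 (39.8% of all genes), with log2 fold changes from 2.67 ± 0.44 for H2-Oa to 5.44 ± 0.62 for H2-Ab1. The median was 4.67, and adjusted p ranged from 6.02e-06 to 0.000193. Cd74 rose from a mean of 123 to 4164 normalised counts and Ciita from 2.94 to 67.8. This comparison uses the same PBS-only legs as the HRS comparison, and the side of the HRS-MBP muscle is not labelled.

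HRS-MBP libraries were above the mean of the HRS legs for all 10 genes, by 1.82-fold for Ciita to 2.64-fold for Cd74. None was called (0 of 10, against 0.396% of all genes called higher), with log2 fold changes of 1.09 to 1.72. Unadjusted limma p ran from 0.00886 for H2-DMa to 0.0546 for Ciita, and adjusted p ran from 0.199 to 0.354. The 10 genes move together, so these are not separate results. The outcome depended on the m864 leg and on the weighting of libraries. With array weights and all libraries kept, limma called 10 of 10 genes (3.28% of all genes higher). Without m864 and with no weights it called 9 of 10 genes, all but Ciita (3.25% of all genes higher), with H2-Ab1 at 2.10 ± 0.47 (adjusted p = 0.0162). The HRS-MBP titles name a fusion partner and another concentration, the side of that muscle is not labelled, and what these contribute cannot be told apart.

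**Figure D3:**
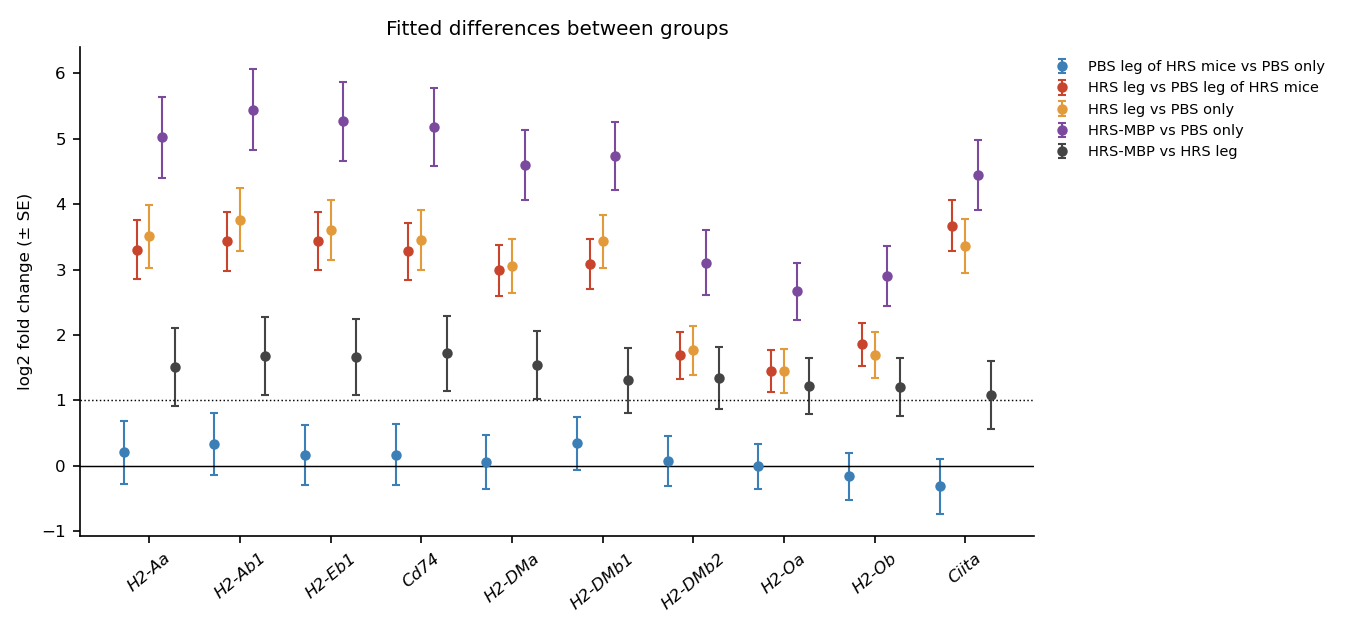
Log2 fold changes ± SE from limma for the 10 genes in 5 comparisons, with a solid line at 0 and a dotted line at 1. The contralateral against PBS-only points lie around 0, and the HRS-MBP against PBS-only points lie highest for every gene.

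The m864 HRS leg was also highest for Ptprc, the pan-leukocyte antigen CD45, at 279 normalised counts against 58.0 to 115 in the other HRS legs. It was lowest for Ckm, the creatine kinase of muscle fibres, at 5050 against 8738 to 24181. The m866 leg was lowest for Ptprc and highest for Ckm. Without m864, 10 of 10 genes were still called in HRS against contralateral legs (15.1% of all genes higher). The median log2 fold change of the 10 genes was then 2.79, and that of all genes tested 0.07. The part of leukocyte number in these differences was not tested.

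Marker lists describe which cells the muscle held. In HRS against contralateral legs limma called higher 8 of 8 macrophage markers, 6 of 6 T cell markers, 6 of 8 dendritic cell markers and 5 of 6 tested B cell markers. All 6 of these B cell markers, 4 of the T cell and 2 of the dendritic cell markers had a mean under 0.5 in both PBS groups and were tested only through the groups where they are high. The summed macrophage markers ran from 1143 to 5910 normalised counts in HRS legs, 124 to 328 in contralateral legs, 107 to 239 in PBS-only legs and 4833 to 5231 in HRS-MBP muscle. Dendritic cell markers summed to 30.7 to 94.7, 10.8 to 15.4, 11.8 to 18.8 and 68.6 to 84.5 in the same order. B cell markers summed to 5.50 to 42.0, 1.18 to 1.75, 0.913 to 1.70 and 36.0 to 59.8. Ptprc itself changed by 3.93 ± 0.35 on the log2 scale, above the fitted value of each of the 10 class II genes. Of 5 fibroblast markers 3 were called higher, Col1a1 and Col3a1, which encode fibrillar collagens, and Lum, and these markers summed to 1894 to 18402 in HRS legs and 859 to 2057 in contralateral legs. None of 6 endothelial markers passed, with sums of 347 to 395 against 319 to 392, and 3 of 8 fibre markers (Ckm, Ttn and Pvalb) fell, where 6.27% of all genes were called lower. The summed fibre markers overlapped between HRS legs (37132 to 1.48e+05) and contralateral legs (1.05e+05 to 1.71e+05), as did the fibroblast sums. Fibre genes such as Acta1 stood among the highest levels in all groups, as the tissue label says. The part of any of these cells in the class II result was not tested.

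Ratios between 2 genes within a library were compared for 12 gene pairs by exact 2-sided permutation of libraries, with Benjamini-Hochberg adjustment over the 12. Values are log2 ratios of (normalised count + 0.5). Between HRS and contralateral legs 7 of 12 passed. H2-Aa and H2-Eb1 relative to H2-Ab1 did not pass, with differences of -0.13 (adjusted permutation p = 0.202, lower in 4 of 5 mice) and 0.01 (adjusted permutation p = 0.944). Against PBS-only legs the H2-Aa to H2-Ab1 difference was -0.25 and passed (adjusted permutation p = 0.0159). Cd74 fell slightly relative to H2-Ab1, by 0.15 (1.24 ± 0.05 against 1.39 ± 0.08, SD, n = 5 each, adjusted exact p = 0.0190). H2-DMa fell relative to H2-Ab1 by 0.44 (adjusted permutation p = 0.0317).

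Within the loading machinery, the H2-DMb2 to H2-DMb1 log2 ratio was -3.41 ± 0.32 in HRS legs and -2.02 ± 0.23 in contralateral legs (SD, n = 5, adjusted exact p = 0.0190). How reads shared between these near copies were counted is not given, so the level of each copy, and this ratio, is uncertain. The H2-Ob to H2-DMb1 log2 ratio was -3.72 ± 0.18 against -2.49 ± 0.15 (SD, n = 5, adjusted exact p = 0.0190). H2-Ob and H2-DMb2 are low enough that the pseudocount adds to their PBS values. With no pseudocount the differences were -0.56 for H2-Ob to H2-DMb1 and -1.04 for H2-DMb2 to H2-DMb1, and both still passed. H2-Oa relative to H2-DMa gave -1.53 (adjusted permutation p = 0.0190), but 0.85 with no pseudocount (adjusted permutation p = 0.248), so its direction was not established.

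Against Ptprc, H2-Ab1 fell by 0.50 (adjusted permutation p = 0.0408) and Cd74 by 0.65 (adjusted permutation p = 0.0190). At a pseudocount of 2 neither passed, with differences of -0.30 and -0.42. Ciita relative to Ptprc differed by -0.26 (adjusted permutation p = 0.257). Ciita relative to H2-Ab1 differed by 0.24 (adjusted permutation p = 0.254), a value that was 0.55 with no pseudocount and -0.34 at a pseudocount of 2. Against PBS-only legs the Ciita to H2-Ab1 difference was -0.40 (adjusted permutation p = 0.0519), so its direction was not established. By exact sign flips over the 5 mice 0 of 12 ratios passed, and 5 mice cannot reach an adjusted p under 0.0625.

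Between HRS and PBS-only legs 8 of 12 ratios passed, H2-Aa to H2-Ab1 among them. This count was 0 to 10 with 1 library left out and 0 without the HRS leg of m862, m863, m865 or m866. With 1 library fewer there are fewer permutations, and the lowest possible permutation p lies above the 0.00794 of the full set. The permutation also took the 4 legs of 2 PBS-only mice as separate samples. Between contralateral and PBS-only legs 0 of 12 passed, with 2 at an unadjusted permutation p under 0.05. With 2 HRS-MBP libraries, exact permutation cannot go below p = 0.0667 against PBS-only legs or 0.0476 against HRS legs, and 0 of 12 ratios passed in either. The H2-Ab1 to Ptprc log2 ratio was 2.94 ± 0.08 in HRS-MBP muscle (SD, n = 2) and 2.17 ± 0.38 in HRS legs (SD, n = 5, adjusted exact p = 0.229).

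**Figure D4:**
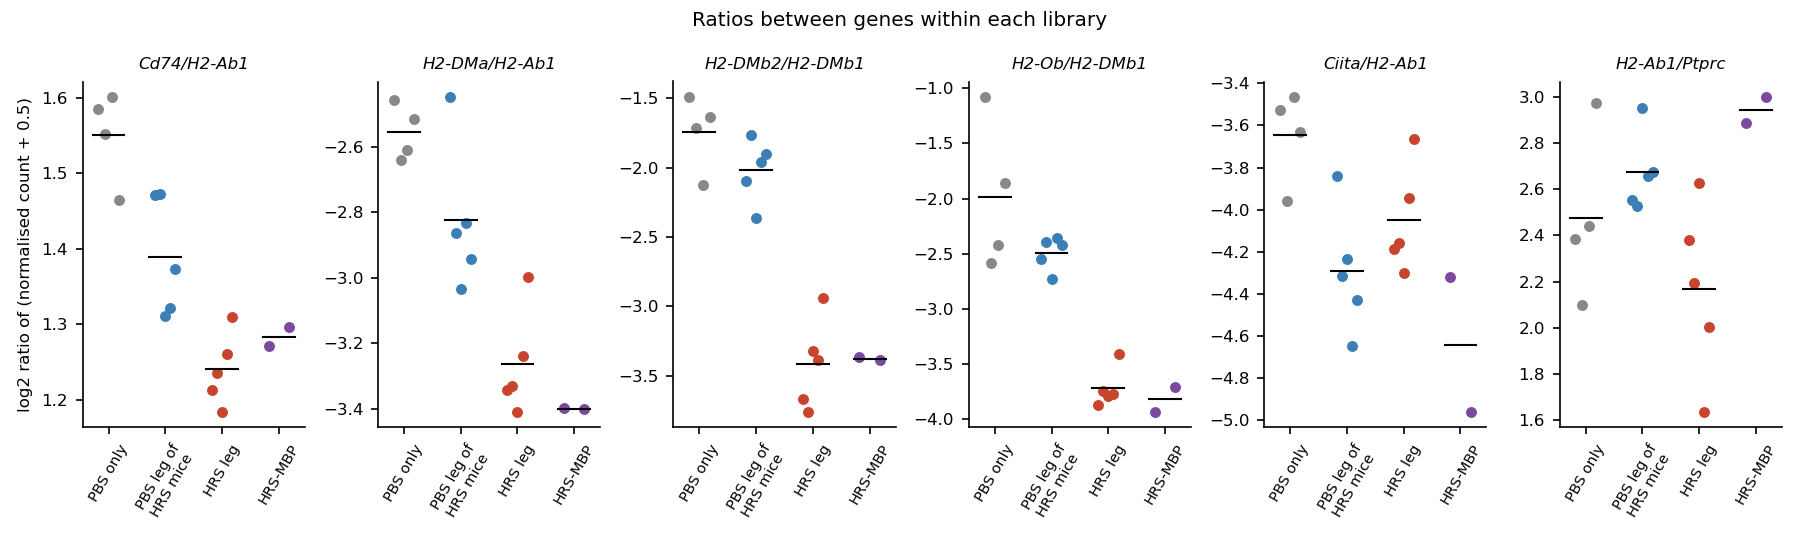
Log2 ratios of (normalised count + 0.5) for 6 gene pairs in each library, with a bar at the group mean and a scale of its own for each panel. H2-DMb2 and H2-Ob are lower relative to H2-DMb1 in every HRS leg than in every contralateral leg, and the H2-Ab1 to Ptprc ratio overlaps between the groups.

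Over the 16 libraries the log2 levels of the other 9 genes correlated with H2-Ab1 at r of 0.946 (H2-Oa) to 0.999 (Cd74). These points share groups and scaling, and r is given as a description. Among 13615 protein-coding genes outside the 10, those most alike to H2-Ab1 were Itgb7, Apobec3, Rnase6, Ptpro and Batf3 (r from 0.991 to 0.994, 16 libraries). For Ciita they were Nfkbie, Nlrp3, Cd52, Neurl3 and Samhd1 (r from 0.991 to 0.993). For H2-Oa they were Ubash3a, Pdcd1lg2, Themis, Cd6 and Tlr12 (r from 0.980 to 0.992). Among those most alike to H2-Ob were Icos, Ipcef1, Ccl5 and Gimap7 (r from 0.982 to 0.986).

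The class II region spans 224 kb between H2-Oa and H2-Eb1 (chr17:34092340-34316674) and held 18 genes of the table, 14 of which were tested. In HRS against contralateral legs 12 were called higher, 8 class II presentation genes and 4 others. The 4 were Psmb9 (log2 fold change 2.94 ± 0.37, adjusted p = 2.24e-05) and Psmb8 (2.80 ± 0.38), subunits of the immunoproteasome, and Tap1 (3.08 ± 0.42) and Tap2 (1.84 ± 0.31), the transporter that feeds peptides to class I. Brd2, a chromatin reader on the minus strand whose span (chr17:34112023-34122634) overlaps that of H2-DMa on the plus strand, was not called at 0.22 ± 0.10 (adjusted p = 0.0683), with 121 to 156 normalised counts in HRS legs and 103 to 120 in contralateral legs. Gm15821, a noncoding RNA, was not called at 0.85 ± 0.28.

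**Figure D5:**
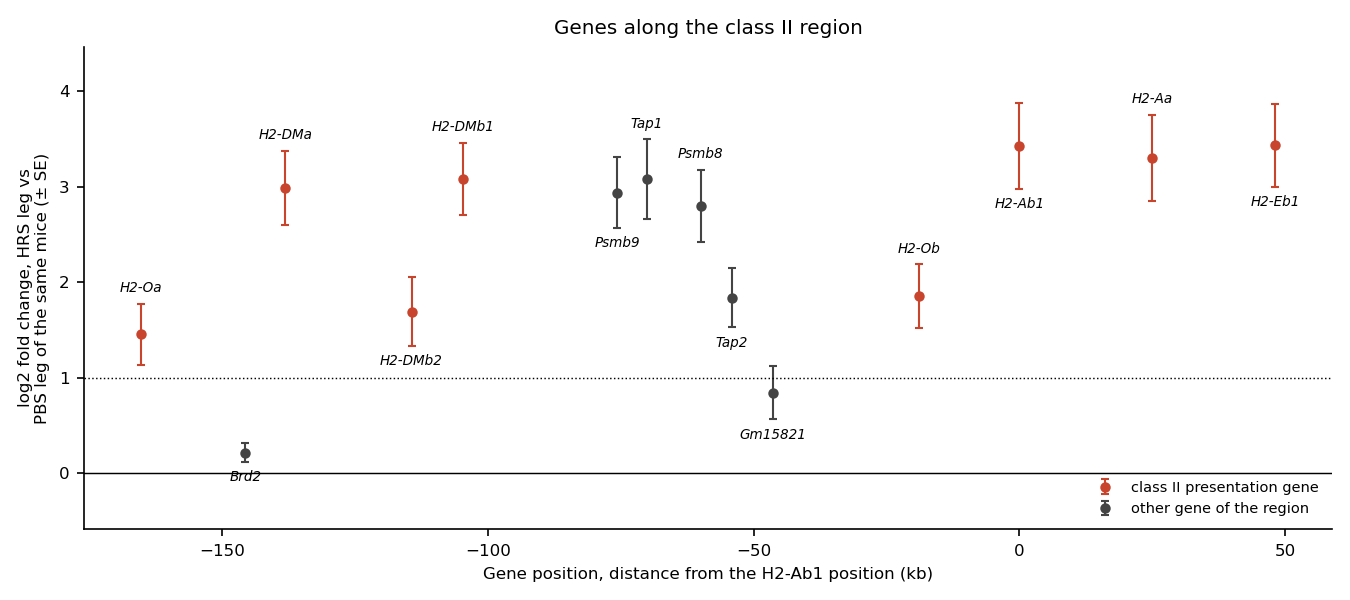
Log2 fold change ± SE between HRS and contralateral legs of the 14 tested genes of the class II region, by distance in kb of the gene's lower coordinate from that of H2-Ab1. Red points are class II presentation genes and dark points the others. Brd2 and Gm15821 lie below the dotted line at 1.

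Proteases and cofactors prepare the peptides that class II molecules bind. Of 11 genes of processing and loading, 6 rose in HRS against contralateral legs and 5 were not called, with a median log2 fold change of 1.34. Ctss, the cathepsin that trims the invariant chain, rose from a mean of 15.8 to 522 normalised counts (log2 fold change 4.75 ± 0.48, adjusted p = 3.49e-06). Ifi30, the lysosomal thiol reductase, rose by 3.42 ± 0.31, Slc11a1, an endosomal metal transporter, by 3.57 ± 0.36 and Lgmn, the asparaginyl endopeptidase, by 2.24 ± 0.31. Lamp1, a general lysosomal membrane protein, changed by 0.13 ± 0.11 (adjusted p = 0.299).

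Of 11 factors of class II promoters 6 rose and 5 were not called. Irf1, Irf8 and Spi1 (PU.1) rose by 2.91 to 3.41 on the log2 scale. Rfx5, the DNA-binding RFX subunit, rose by 1.15 ± 0.16 (adjusted p = 6.68e-05) and Nfya, an NF-Y subunit, by 1.18 ± 0.17 (adjusted p = 7.84e-05). The other subunits of these complexes did not pass both thresholds. Rfxap changed by -0.58 ± 0.13 and Nfyb by -0.55 ± 0.16, and Rfxank by 0.27 ± 0.10.

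Of 3 genes of class II turnover, Marchf1, the ligase that ubiquitinates class II, rose by 2.90 ± 0.41 (adjusted p = 5.56e-05) and Cd83, which counters it, by 2.64 ± 0.30 (adjusted p = 1.03e-05). Marchf8, the widely expressed relative of Marchf1, changed by 0.05 ± 0.10 (adjusted p = 0.689). Of 9 receptors and costimulators of CD4+ T cells 8 were tested and 7 rose, of which Cd80 and Ctla4 were tested only through the groups where they are high. Cd4, the coreceptor for class II, rose from 0.564 to 20.3 normalised counts (adjusted p = 4.83e-06), and Cd40, which receives T cell help on presenting cells, by 3.17 ± 0.32. Cd28 changed by -0.09 ± 0.33 (adjusted p = 0.826).

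Of 10 genes of the interferon-gamma axis 9 were tested and 6 rose in HRS against contralateral legs. Ifng, the cytokine, which also reached the filter only through the HRS and HRS-MBP groups, was listed at 0 in 5 of 5 contralateral legs and read 1.36, 0.744, 5.30, 0.349 and 1.43 normalised counts in the HRS legs of m862 to m866. The m864 leg was highest for Ifng, and the m866 leg, the lowest HRS leg for H2-Ab1, was the next highest. The part of Ifng in the class II values was not tested. Socs1, a feedback inhibitor, rose by 2.76 ± 0.40 (adjusted p = 6.77e-05) and Ifngr1 by 1.02 ± 0.21. Ifngr2 changed by -0.48 ± 0.14, Jak1 by -0.01 ± 0.11 and Jak2 by -0.08 ± 0.18, none of which was called.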

How the data were processed

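Poly(A) RNA-seq libraries were made from mouse muscle with a directional kit and sequenced on 3 instrument types, with no map of libraries to instruments. The authors deposited 1 table of normalised counts (unit signal) for 26382 genes and 16 libraries, with 0 other columns of sample values. The submitters' processing notes name STAR 2.7.8a, limma and mm39 (GRCm39). The table's coordinates instead matched GRCm38: of 25652 genes found in GENCODE M21, 99.39% had the same start, and in 99.24% the deposited stop lay 1 base past the end. Positions printed are those of GRCm38. Trimming, read counting, strand setting and scaling are not given in the sources used here. Of the values up to 20 steps, the share lying within 0.02 of a whole step was 74.6% to 76.5%. Taking 1 step as 1 read implied 8.6e+06 to 7.39e+07 reads per library. The rest were not whole, so the table was not treated as read counts and no count model was fitted. A library's value of 1 read is the limit of its precision.

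Genes with a mean of at least 0.5 (16414) were tested on log2(value + 0.5) with limma 3.58.1 (R 4.3.3), trended variance, 4 groups in 1 fit and Benjamini-Hochberg adjustment over all genes. Ratios and sign flips were exact tests in Python 3.11.15 with numpy 2.4.6, pandas 2.3.3 and scipy 1.17.1. The fit was tested on simulated data. The legs of m862 to m866 are paired because the labels give the same mouse. Their deviations from the group means correlated at 0.12, 0.16, 0.10, -0.03 and -0.37. Alternatives were other pseudocounts, filters, scalings and variance models, each library left out, a replicate block and averaged PBS-only legs. An estimated mouse correlation and ratios with no pseudocount were added after the data were seen. Named genes were the 10 members, the genes of the listed pathways and cell types, called genes of the region, and the 5 most alike to H2-Ab1, Ciita, H2-Oa and H2-Ob. Some genes and motifs that the rules name are not reported here. The genes and lists were chosen with earlier results of these data known. Whether the libraries of a group came from separate immunisation batches is not given, and the legs of 1 mouse are not independent samples.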

Additional observations from a re-analysis of the deposited data

Results flagged for a closer look

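The HRS leg of m864 lay farther above the other 4 HRS legs than Dixon's 95% limit allows for 9 of the 10 genes, all but H2-Oa. For genes the limit was applied to normalised counts, not to the log2 scale of the fits. Whether this leg exceeds it on that scale was not tested. Its normalised counts were 3931 for Cd74, 1699 for H2-Aa, 1729 for H2-Ab1, 1424 for H2-Eb1 and 162 for H2-DMa. They were 133 for H2-DMb1, 12.9 for H2-DMb2, 9.20 for H2-Ob and 87.2 for Ciita. These genes move together, so the 9 values are 1 observation on 1 leg. The same leg had the highest Ptprc and the lowest Ckm value of the HRS legs, and the part of either in the class II values was not tested.

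Of the PBS-only legs, the right leg of m868 stood apart for H2-Oa at 0.243 normalised counts, which is 2 reads in the shallowest library. The contralateral leg of m864 was high for the log2 ratio of Cd74 to Ptprc, at 4.26. The contralateral leg of m862 was high for the log2 ratio of H2-DMb1 to H2-DMa, at -0.0021. The HRS leg of m866 was high for the log2 ratio of H2-Ob to H2-DMb1, at -3.41. In all, 66 groups of 4 or 5 values were examined and 13 gave such a value, most of them from the m864 HRS leg. Chance gives about 1 in 20 for independent normal values. The 66 groups share libraries and genes that move together, so the 13 cannot be set against that rate.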

How the results depend on the processing

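The count of the 10 genes called stayed within 1.5 times in every alternative for HRS against contralateral legs (9 to 10), HRS against PBS-only legs (8 to 10), HRS-MBP against PBS-only legs (9 to 10) and contralateral against PBS-only legs (0). In HRS legs H2-Oa was lost against both PBS groups at pseudocounts of 1 and 2, and against PBS-only legs under quantile normalisation. H2-Ob was lost in HRS against PBS-only legs at a pseudocount of 2. A filter at a mean of 2 left H2-Oa untested in every comparison. For HRS-MBP against HRS legs, array weights raised the count from 0 to 10, and leaving out 1 library gave 0 to 9, the 9 without the m864 HRS leg. The cause was not tested. With mouse as a fixed replicate block 10 of 10 genes were called in HRS against contralateral legs (16.5% of all genes higher). With an estimated correlation of -0.15 the replicate block changed no call of the 10 genes in the 5 comparisons. Quantile normalisation moved the median of all genes in that comparison from 0.08 to -0.16, and same-total scaling to 0.45 and that of the 10 genes from 3.18 to 3.59.

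Member ratios that passed between HRS and contralateral legs fell from 7 to 0 with the replicate block by sign flips over 5 mice, which cannot reach the threshold, and were 6 to 8 with 1 library left out. Between HRS and PBS-only legs they were 0 to 10 with 1 library left out. They were 0 without the HRS leg of m862, m863, m865 or m866, and 5 without the left leg of m868. In this comparison, 1 library fewer leaves fewer permutations. The lowest possible permutation p then lies above the 0.00794 of the full set. What else contributed was not tested. The H2-Oa to H2-DMa difference turned to 0.85 with no pseudocount, and those of H2-Eb1 and Ciita to H2-Ab1 to -0.00050 and -0.34 at a pseudocount of 2. With 1 library left out the H2-Eb1 to H2-Ab1 difference ran from -0.022 to 0.053.

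Between contralateral and PBS-only legs, where no gene was called, signs turned. Under quantile normalisation H2-DMa read -0.021 and H2-DMb2 -0.0017. H2-Oa read 0.053 at the lower pseudocount and 0.068 with array weights. With 1 library left out the ranges were -0.12 to 0.48 for H2-Aa, -0.14 to 0.38 for H2-Eb1, -0.20 to 0.32 for H2-DMa, -0.0038 to 0.53 for H2-DMb1, -0.19 to 0.29 for H2-DMb2, -0.069 to 0.12 for H2-Oa, -0.35 to 0.074 for H2-Ob and -0.11 to 0.41 for Cd74. At 8.6e+06 reads the shallowest PBS-only leg resolved H2-Oa in steps of 0.121.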
